A study of Mus musculus with 16 samples.

Results

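Prnp, the gene of the cellular prion protein, was followed with 4 genes beside it on mouse chromosome 2: Lamr1-ps1, Prnd, Rassf2 and Slc23a2. They are 5 of the 49671 gene rows of the deposited count table, found by Ensembl identifier. Prnp was chosen because its promoter drives the transgene of the mouse line studied, and the others because they lie next to it. The set was selected on measured values, the transgene differences in CPM and log2 fold change of these data, as well as on position. It was proposed with transgene differences of these data in view, so the differences between libraries with and without the transgene are described here without a test.

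Bulk RNA of the hippocampus was sequenced from female mice 8 months of age, in 4 groups of 4 libraries. The wildtype group carried neither genotype, and the p16KO group lacked p16, a cell-cycle inhibitor encoded by Cdkn2a. The PS19 group carried the PS19 transgene, and the PS19_p16KO group carried it on the p16 knockout. PS19 mice express human tau with a disease mutation from the mouse Prnp promoter and are a model of tauopathy. The labels do not describe the p16 allele, and do not say in words that the libraries of a group came from separate animals. The p-values below therefore measure the spread between these libraries.

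The prion protein is held on the outer face of the plasma membrane by a glycosylphosphatidylinositol (GPI) anchor, is abundant in neurons, binds copper, and is the protein that misfolds in prion disease. Prnd encodes doppel, a related protein known mainly from testis. Rassf2 encodes a Ras-association domain protein that binds the Hippo kinases, and Slc23a2 encodes a sodium-dependent vitamin C transporter found in neurons and choroid plexus. Lamr1-ps1 is a processed pseudogene of Rpsa, whose product is a ribosomal protein also known as the laminin receptor.

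In GRCm38 with GENCODE M21, Lamr1-ps1 occupies chromosome 2, 131904086 to 131904959, in a single exon of 874 bases, and ends 4969 bases before Prnp. Prnp follows on the same strand at 131909928 to 131938429, and its last exon (131936420 to 131938429) holds 2010 bases that no other gene shares. Prnd lies at 131950861 to 131956130 on that strand. Rassf2 (131989415 to 132030258) and Slc23a2 (132052496 to 132145108) are on the opposite strand.

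The 250 bases before the RefSeq start of Prnp (GRCm38.p6, chr2:131909678-131909927, plus strand) are shown because the Prnp promoter drives the transgene. How much of it the transgene carries is not stated in the labels. Capitals mark 3 motifs, each searched on both strands, so that a capital run may be the reverse complement. The first was the core of the GC box, bound by Sp1, with the letters GGGCGG. The second was the CCAAT box, with the letters of its name. The third was a match to the core letters TATAAA that are found in some promoters close to the start of transcription. No matches of different motifs overlapped.
Prnp promoter: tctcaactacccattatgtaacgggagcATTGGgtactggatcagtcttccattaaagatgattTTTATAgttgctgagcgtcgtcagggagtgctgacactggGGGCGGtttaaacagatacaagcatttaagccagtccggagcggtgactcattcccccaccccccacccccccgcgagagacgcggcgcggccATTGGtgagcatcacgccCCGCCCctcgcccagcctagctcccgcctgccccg
This window held 2 GC box cores, 2 CCAAT boxes and 1 TATA match, with 58.8% G or C and 17 CpG pairs. The TATA match is a reverse complement that stands before both GC box cores, well away from the start of transcription. Among 32851 RefSeq promoter windows of the same length, 32.7% held a GC box core, 33.8% a CCAAT box and 12.4% a TATA match. The window of Rassf2 held none of the 3 motifs, and the first window of Prnd held 1 CCAAT box. The first window of Slc23a2 held 2 CCAAT matches, which overlap in a single stretch, CCAATTGG, matched on both strands. Its second window held 6 GC box cores, some of them overlapping. A match is a description of letters and was not tested as a binding site.

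Lamr1-ps1 and Rpsa can be told apart by sequence. Over 848 aligned bases of the Rpsa coding sequence the pseudogene was identical at 642 (75.7%), and the longest run of identical bases was 25. The 90 aligned bases with the most differences are shown for both genes, with the 29 differing bases in capitals. The pseudogene stretch is chr2:131904864-131904953, plus strand, and the Rpsa stretch is bases 956 to 1045 of its main transcript and crosses an exon junction.
Lamr1-ps1: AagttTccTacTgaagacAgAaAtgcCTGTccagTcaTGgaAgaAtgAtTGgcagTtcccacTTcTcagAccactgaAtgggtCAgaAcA
Rpsa: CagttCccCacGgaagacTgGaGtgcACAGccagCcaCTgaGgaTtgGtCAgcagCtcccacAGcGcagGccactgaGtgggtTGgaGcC

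Libraries held 18485552 to 22311322 gene counts. Levels are counts per 1000000 gene counts (CPM), without the spike-in rows. Of the 5 genes 4 passed the filter on low counts and were tested among 16372 genes, and Prnd did not. Hippocampal markers were present in all libraries, with 6 of 6 detected. Choroid plexus markers, summed over 5 genes, reached 847 CPM in wildtype library 1, 3363 CPM in p16KO library 4 and 5744 CPM in PS19_p16KO library 3, against 35.6 to 198 CPM in the other 13.

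Prnp was higher in every library with the transgene than in every library without it, in both p16 genotypes. Groups did not overlap, in either direction, for 4.99% of genes tested in PS19 against wildtype. In PS19_p16KO against p16KO that share was 2.64%. Prnp levels were 1070, 984, 1045 and 986 CPM in wildtype and 1066, 1080, 1061 and 1066 CPM in p16KO. In PS19 they were 1938, 1536, 1960 and 1644 CPM, and in PS19_p16KO 1911, 1879, 1894 and 1770 CPM. The lowest PS19 library stood 1.44-fold above the highest wildtype library, and the lowest PS19_p16KO library 1.64-fold above the highest p16KO library. Means were 1021 CPM ± 43.3 (SD, n = 4), 1068 CPM ± 8.47, 1770 CPM ± 212 and 1863 CPM ± 63.8 in wildtype, p16KO, PS19 and PS19_p16KO. The ratio of means was 1.73 with p16 intact and 1.74 without it, and the fitted log2 fold changes were 0.79 ± 0.07 (SE) and 0.81 ± 0.07. In CPM the excess was 748 ± 108 (SE) and 795 ± 32.2.

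The values that chose Prnp and Lamr1-ps1 are these same transgene differences. Both were among the genes called by edgeR's quasi-likelihood test, which were 1.61% of genes tested in PS19 against wildtype and 0.0183% (3 genes) in PS19_p16KO against p16KO. Nothing is read from those calls for genes chosen this way. In a per-gene count table, RNA of the endogenous Prnp gene and any Prnp sequence transcribed from a transgene cannot be told apart.

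Scaled to the spike-ins, every library with the transgene still stood above every library without it, but by a narrow gap. The lowest with it was PS19 library 1 at 182, and the highest without it p16KO library 3 at 173. This rescales the same values that chose Prnp. Per 1000 spike-in counts, Prnp lay between 125 and 171 in wildtype, 127 and 173 in p16KO, 182 and 322 in PS19, and 205 and 304 in PS19_p16KO. Astrocyte markers, summed over 5 genes of which none was at 0, lay between 2043 and 4172 CPM in PS19 and between 1539 and 1769 CPM in the wildtype libraries. They lay between 1641 and 1752 CPM in PS19_p16KO and between 1545 and 1910 CPM in p16KO. Microglial markers, also 5 genes with none at 0, summed to 226 to 360 CPM in PS19, 176 to 196 CPM in wildtype, 199 to 226 CPM in PS19_p16KO and 189 to 225 CPM in p16KO. Oligodendrocyte markers were higher on average with the transgene in both p16 genotypes. Their means were 2642 against 2169 CPM with p16 intact and 2739 against 2614 CPM without it. Neuron markers, 5 genes with none at 0, summed to 3988 to 4586 CPM in PS19 and 4397 to 5054 CPM in wildtype. They summed to 4346 to 4684 CPM in PS19_p16KO and 4425 to 4766 CPM in p16KO. The part of neurons, astrocytes, microglia and oligodendrocytes in the Prnp values was not tested. In bulk RNA, fewer cells of a type and less RNA per cell cannot be told apart.

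The spread of Prnp was widest in PS19, with a coefficient of variation of 11.99% against 3.42% in PS19_p16KO, 4.24% in wildtype and 0.793% in p16KO. PS19 libraries 2 and 4 were the low ones, at 1.504 and 1.61 times the wildtype mean, while libraries 1 and 3 reached 1.90 and 1.92 times. The PS19_p16KO libraries lay between 1.66 and 1.79 times the p16KO mean. The difference in spread between these groups was not tested.

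**Figure D1:**
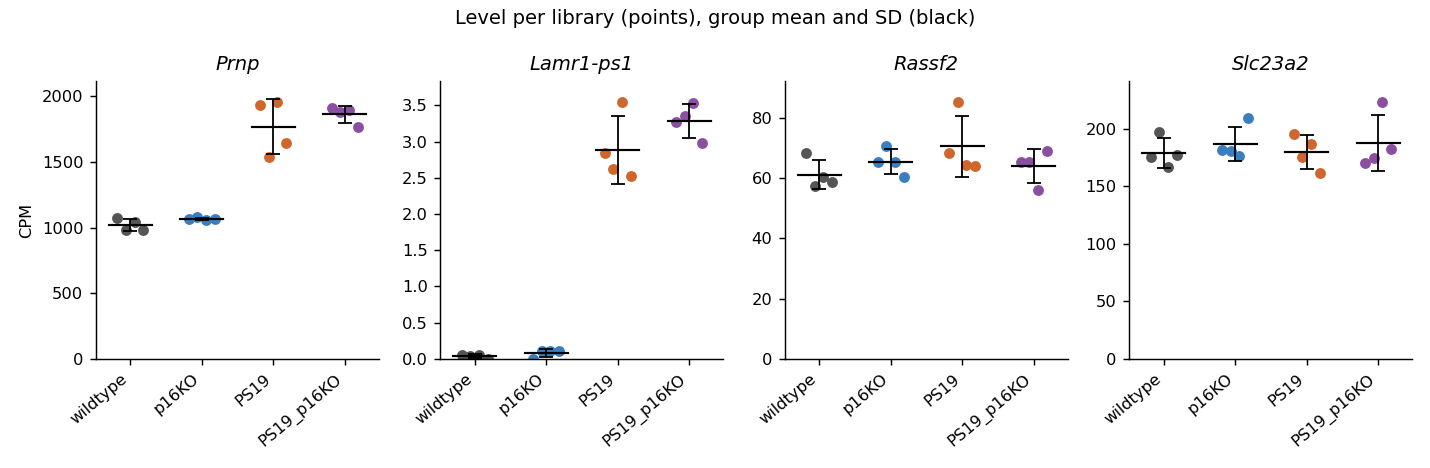
Level in CPM (vertical axis, from 0) of Prnp, Lamr1-ps1, Rassf2 and Slc23a2 in each of the 16 libraries (points, 4 per group), with the group mean and SD in black. Prnp and Lamr1-ps1 separate the libraries with the transgene from those without it, and Rassf2 and Slc23a2 overlap across all 4 groups. Of genes tested, 4.99% did not overlap in PS19 against wildtype and 2.64% in PS19_p16KO against p16KO.

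Lamr1-ps1 was close to undetected without the transgene and present in every library with it. It had 1, 1, 1 and 0 counts in the wildtype libraries and 0, 2, 2 and 2 in p16KO. In PS19 it had 53, 54, 66 and 47 counts, and in PS19_p16KO 69, 64, 66 and 55. No library with the transgene came near a library without it. Of genes tested, 4.99% did not overlap in PS19 against wildtype and 2.64% in PS19_p16KO against p16KO. Lamr1-ps1 counts summed to 3 in wildtype and 220 in PS19, a rate ratio of 75.9 (exact 95% interval 25.6 to 371, counting error only). They summed to 6 in p16KO and 254 in PS19_p16KO, a rate ratio of 44.0 (19.9 to 121). PS19 libraries averaged 2.88 CPM ± 0.465 (SD, n = 4). The average was 3.28 CPM ± 0.235 in PS19_p16KO, which is low beside Prnp. Per kilobase of exon bases not shared with another gene, Lamr1-ps1 reached 3.30 and 3.76 RPKM in these groups and Prnp 805 and 848 RPKM. The fitted log2 fold changes were 6.02 ± 0.41 and 5.35 ± 0.37, and they depend on the prior count because the control counts are so few.

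Rpsa, the parent gene, overlapped between all groups. It stood at 301 CPM ± 23.7 (SD, n = 4) in wildtype and at 305 CPM ± 29.1 in PS19, and at 301 CPM both in p16KO (± 26.8) and in PS19_p16KO (± 18.5). The transgene difference was near 0 (log2 0.01 ± 0.07 in PS19 against wildtype, edgeR adjusted p = 0.98). The table held 9 other Rpsa pseudogenes. Rpsa-ps10 on chromosome 3, the highest of them, had 95, 91, 88 and 113 counts summed over wildtype, p16KO, PS19 and PS19_p16KO. The other 8 held between 0 and 32 counts over all 16 libraries.

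Among the 8 libraries with the transgene, Lamr1-ps1 and Prnp rose and fell together to some extent. On log2(CPM + 0.1) Pearson's r was 0.798 (exact permutation p = 0.0149, adjusted p = 0.0448 over 6 relations) and Spearman's rho was 0.67 (exact permutation p = 0.0831, adjusted p = 0.249). Without the 2 libraries farthest from the median of Prnp r was 0.354, so the relation rests on those libraries. The 8 libraries pooled PS19 and PS19_p16KO without removing group means. Both genes averaged higher in PS19_p16KO, and that group difference enters r and p. For each CPM of Lamr1-ps1 above the control mean there were 199 to 326 CPM of Prnp above its own. Among the 8 libraries without the transgene, where Lamr1-ps1 had at most 2 counts and could show little, r was 0.508 (exact permutation adjusted p = 0.263) and rho 0.54 (adjusted p = 0.353).

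**Figure D2:**
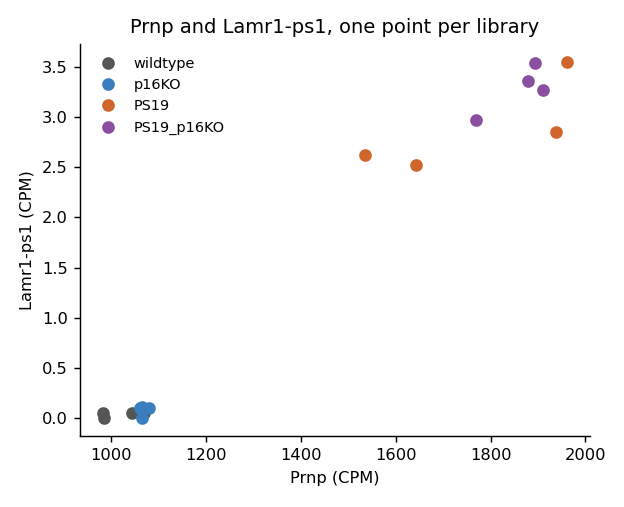
Prnp (horizontal axis, CPM) against Lamr1-ps1 (vertical axis, CPM), with each point a library coloured by group. The 8 libraries without the transgene sit at or below 0.105 CPM of Lamr1-ps1, and the 8 with it sit between 2.52 and 3.55 CPM.

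Prnd had 0 counts in all 16 libraries, and these data do not measure it. Of its 3211 exon bases, 3122 are also exons of Prn, an annotated readthrough gene that joins Prnp and Prnd (131909957 to 131956130), and 89 (2.77%) belong to Prnd alone, the longest stretch of them 55 bases. A count of 0 allows up to 0.0096 CPM over all libraries (3 counts, counting error only) on those 89 bases. Reads on shared exons may have gone to no gene or to Prn, and the rule of assignment was not given in the sources used here. Prn itself had 4 counts, 2 in PS19 library 4 and 2 in PS19_p16KO library 4, and has 103 exon bases of its own. Prnp loses only 145 of 2343 exon bases to this overlap.

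Rassf2 overlapped between the groups in both transgene comparisons, where 4.99% of genes tested did not overlap in PS19 against wildtype and 2.64% in PS19_p16KO against p16KO. It had 68.2, 57.5, 60.4 and 58.6 CPM in wildtype and 65.4, 70.8, 65.2 and 60.4 CPM in p16KO. It had 68.1, 85.4, 64.4 and 64.1 CPM in PS19, and 65.4, 65.4, 56.0 and 69.1 CPM in PS19_p16KO. PS19 library 2 was the highest of all 16. Fitted log2 fold changes for the transgene were 0.20 ± 0.08 with p16 intact and -0.02 ± 0.08 without it. The first was 0.10 without PS19 library 2.

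Slc23a2 was nearly level between groups. It had 176, 197, 167 and 177 CPM in wildtype and 181, 181, 177 and 209 CPM in p16KO. It had 196, 176, 187 and 161 CPM in PS19, and 171, 175, 224 and 182 CPM in PS19_p16KO. Its fitted transgene log2 fold changes were 0.00 ± 0.08 and 0.01 ± 0.08, with intervals of -0.17 to 0.17 and -0.15 to 0.18. The groups overlapped throughout. Per kilobase the order of levels was Prnp, Slc23a2 (22.5 to 23.6 RPKM in the group means), Rassf2 (5.10 to 5.88 RPKM) and Lamr1-ps1, and this order was the same in the means of all 4 groups.

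Genes farther out were taken as a list of all those within 500 kb of Prnp, the 5 genes left out. It held 19 genes, of which 8 were tested. In PS19 against wildtype 1 of 8 was lower and none higher, beside 1.61% of all genes called (1.56% higher, 0.055% lower), with a median log2 fold change of 0.05 against -0.01 over all genes tested. In PS19_p16KO against p16KO none of 8 was called (median 0.04 against 0.00). The nearest tested genes on each side, 5330413P13Rik and Tmem230, a membrane protein gene, had log2 fold changes of 0.11 ± 0.22 (edgeR adjusted p = 0.942) and 0.06 ± 0.07 (edgeR adjusted p = 0.879) in PS19 against wildtype. The gene called lower was Prokr2, the prokineticin receptor 2 gene, 476 kb from the Prnp start. It had 6.63 CPM ± 1.11 (SD, n = 4) in wildtype and 4.48 CPM ± 0.522 in PS19 (log2 -0.57 ± 0.14, edgeR adjusted p = 0.0447), with no overlap between their libraries, a separation found in 4.99% of genes tested. That call was lost under 18 of 26 other settings, with adjusted p up to 0.194. In p16KO it had 5.21 CPM ± 0.332, and in PS19_p16KO 4.72 CPM ± 0.423. Within 1 Mb, 28 of 55 genes were tested and Prokr2 was again the only one called in PS19 against wildtype.

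**Figure D3:**
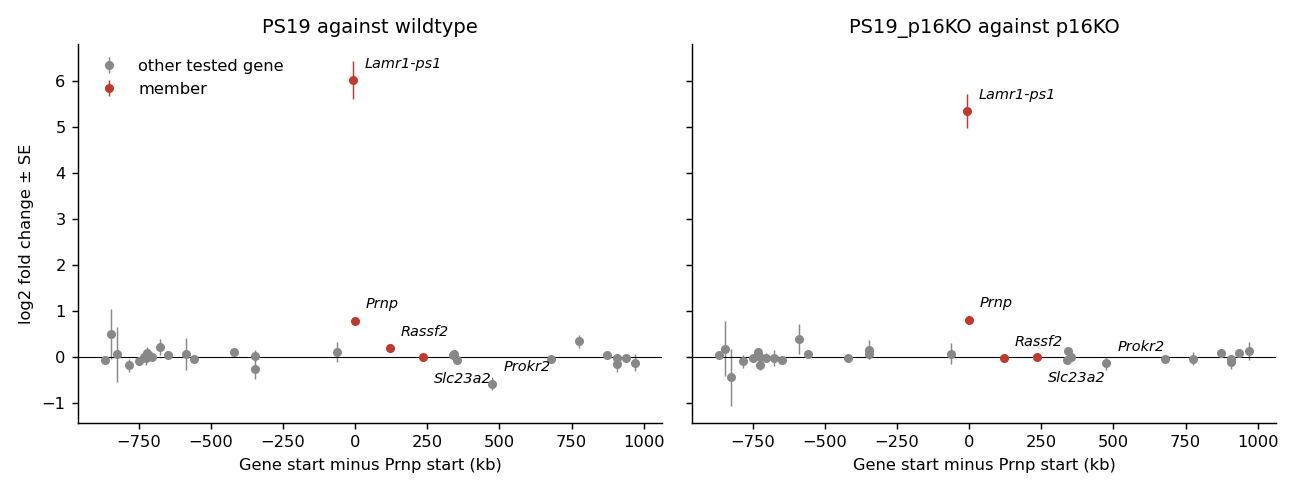
Fitted log2 fold change for the transgene (vertical axis, bars are SE) of each tested gene within 1 Mb against the distance of its start from the Prnp start (horizontal axis, kb), with p16 intact (left) and knocked out (right). Red marks Lamr1-ps1, Prnp, Rassf2 and Slc23a2. Lamr1-ps1 and Prnp stand above 0 in both comparisons, at 6.02 and 0.79 on the left and 5.35 and 0.81 on the right.

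The p16 comparisons were not used to choose the genes and were tested. None of Prnp, Rassf2 and Slc23a2 was called by edgeR in p16KO against wildtype (0% of all genes called, 653 at an unadjusted p under 0.05), in PS19_p16KO against PS19 (0.825% called), in the average of both (0.226% called) or in the interaction (0.00611% called). At an unadjusted p under 0.05 the count was also 0 of these 3 in each. Of the 16372 genes tested, 1406 reached that level in PS19_p16KO against PS19, 1303 in the average and 890 in the interaction. The other settings tried, DESeq2 and limma-voom among them, called none of the 3. The shares of all genes called are so low that 0 of 3 is near them. With only 3 genes, nothing is read from 0 at the unadjusted level either. Lamr1-ps1 passed the count filter through the transgene groups, and with 0 to 2 counts in each library without the transgene it could not show a p16 difference there. It is therefore read only within the libraries that carry the transgene. Prnp differed by log2 0.06 ± 0.07 in p16KO against wildtype (95% interval -0.08 to 0.20, edgeR adjusted p = 0.999). In PS19_p16KO against PS19 it differed by 0.08 ± 0.07 (-0.06 to 0.22, edgeR adjusted p = 0.789), and by 0.016 without PS19 library 2 and 0.137 without PS19 library 3 (edgeR adjusted p = 0.987 and 0.508). The interaction for Prnp, the transgene difference without p16 minus that with it, was 0.02 ± 0.09 (-0.17 to 0.22, edgeR adjusted p = 0.999). Exact two-sided permutation tests on CPM of Prnp, Rassf2 and Slc23a2 in both pairwise comparisons gave adjusted p from 0.643 to 0.893 (adjusted over 10 tests, which also held Lamr1-ps1 and Prnd), where 4 against 4 libraries allow no raw p below 0.0286.

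For Lamr1-ps1 the p16 difference within PS19 libraries was 0.20 ± 0.23 (-0.29 to 0.68, edgeR adjusted p = 0.874). Rassf2 was lower by 0.13 on the log2 scale there (-0.13 ± 0.08, interval -0.31 to 0.05, edgeR adjusted p = 0.735), and its interaction of -0.22 ± 0.12 (-0.47 to 0.02) had an edgeR adjusted p of 0.999. Slc23a2 differed by 0.07 ± 0.08 (-0.10 to 0.24, edgeR adjusted p = 0.867).

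**Figure D4:**
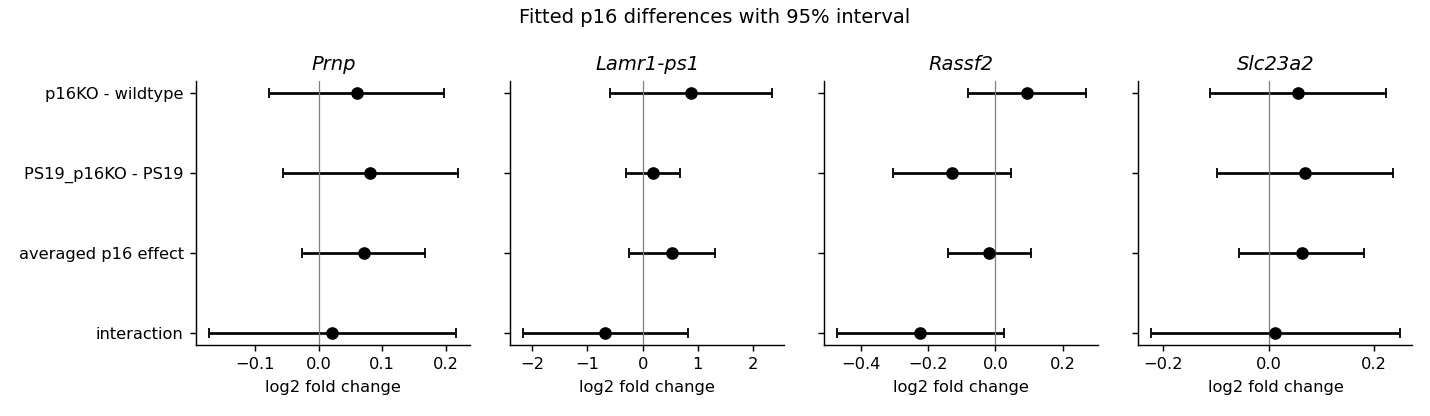
Fitted p16 differences in log2 fold change (horizontal axis, its range differs between panels) with 95% intervals for 4 genes, in the 2 pairwise comparisons, their average and the interaction. Every interval of Prnp, Rassf2 and Slc23a2 spans 0. Those of Lamr1-ps1 are the widest of the 4. Only its PS19_p16KO against PS19 interval is read, because each library without the transgene had 0 to 2 counts.

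Rassf2 moved with oligodendrocyte markers among libraries of the same group. Over the 16 libraries with group means removed, r between Rassf2 and the summed oligodendrocyte markers was 0.872 (permutation p = 0.0005, adjusted p = 0.016 over 32 relations of 4 genes and 8 marker lists), and 0.780 without the 2 farthest libraries. Spearman's rho, on ranks within groups, was 0.70 (permutation p = 0.0152, adjusted p = 0.162). In 4 of 4 groups the library highest in Rassf2 was also the highest in these markers. The 5 markers, none at 0, summed to 1874 to 2758 CPM in wildtype, 2485 to 2801 CPM in p16KO, 2349 to 3252 CPM in PS19 and 2429 to 3062 CPM in PS19_p16KO. Rassf2 also gave r of 0.569 with pericyte and smooth muscle markers (permutation adjusted p = 0.139), and 0.680 without the 2 farthest libraries. With astrocyte markers r was 0.527 (permutation adjusted p = 0.573), and 0.813 without the 2 farthest. By r, only the oligodendrocyte list passed the adjusted threshold with Rassf2. The part of any of these cell types in the Rassf2 values above was not tested.

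Slc23a2 was highest in the 2 libraries with the most choroid plexus RNA, at 224 CPM in PS19_p16KO library 3 and 209 CPM in p16KO library 4. Its within-group r with choroid plexus markers was 0.634 (permutation p = 0.049, adjusted p = 0.392), rho was -0.05 (adjusted p = 0.995), and r was 0.110 without the 2 farthest libraries. All 5 choroid plexus markers were above 0 in the group means, and wildtype library 1, also rich in them, had 176 CPM of Slc23a2. Slc23a2 against pericyte and smooth muscle markers gave r of -0.565 (permutation adjusted p = 0.216) and rho of -0.85 (permutation adjusted p = 0.0413). Prnp passed the adjusted threshold with none of the 8 marker lists. These 32 relations were chosen after the data were seen.

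**Figure D5:**
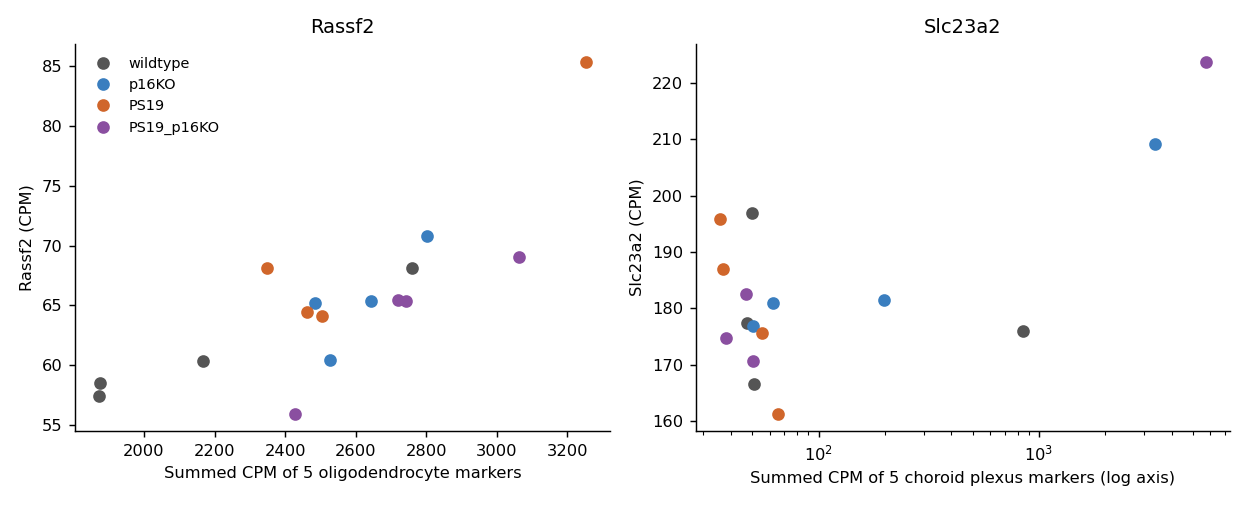
Rassf2 (CPM) against the summed CPM of 5 oligodendrocyte markers (left), and Slc23a2 (CPM) against the summed CPM of 5 choroid plexus markers on a log axis (right), with each point a library coloured by group. PS19 library 2 is highest on both axes at left, and PS19_p16KO library 3 on both at right.

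Prnp and Rassf2 were also related among the 8 libraries without the transgene (r 0.813, exact permutation p = 0.0099, adjusted p = 0.0448; rho 0.93, exact permutation adjusted p = 0.0134; r 0.786 without the 2 farthest libraries). Prnp spanned only 984 to 1080 CPM there. Wildtype and p16KO were pooled without removing group means. Both genes averaged higher in p16KO (Prnp 1068 against 1021 CPM, Rassf2 65.4 against 61.1 CPM), and that group difference enters r and p. Among the 8 with the transgene r was -0.669 (exact permutation adjusted p = 0.154), rho -0.33 (adjusted p = 0.513). The difference between these relations was not tested. Prnp and Slc23a2 gave r of 0.466 with and -0.102 without the transgene (exact permutation adjusted p = 0.299 and 0.860), and rho of 0.48 and 0 (adjusted p = 0.365 and 1).

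The genes most like Prnp over all 16 libraries, by r of log2 CPM among 16371 others, were Lamr1-ps1 (0.978), 4930590L14Rik on chromosome 3 (0.957), the predicted gene Gm5900 on chromosome 7 (0.880), Ilvbl (0.849), the translation factor gene Eif6 (0.814) and Gm12666 (0.814). The 95th percentile of r was 0.501. These likenesses follow the transgene groups. 4930590L14Rik had 0.429 to 1.31 CPM with the transgene and at most 0.0523 CPM without it, and Gm5900 had 1.09 to 1.65 CPM with it and 0.269 to 0.635 CPM without it. For Eif6, 41.4 to 46.6 CPM with the transgene overlapped 38.3 to 42.4 CPM without it. Most like Lamr1-ps1 were Prnp, 4930590L14Rik (0.963), Gm5900 (0.897) and Fez2 (0.832). With group means removed, the genes most like Prnp were others: Asic2, an acid-sensing channel gene (0.910), Otud7a, a deubiquitinase gene (0.873), the growth factor gene Pdgfb (0.868), 1700084E18Rik (0.847), Fem1a (0.824) and Chst8 (0.817), with a 95th percentile of 0.509. All points share libraries and depth, and no p is given.

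Genes whose products act with the prion protein were counted next. Of 17 partners and processing enzymes tested, none passed the test in any of the 6 contrasts, where 1.61% of all genes or fewer were called, so that 0 of 17 is near the share over all genes (median log2 fold change 0.01 in PS19 against wildtype, -0.01 over all genes). Adam17, a shedding protease, had the smallest p of these in PS19 against wildtype (13.3 CPM ± 0.552 against 17.6 CPM ± 2.79, SD, n = 4, log2 0.40 ± 0.11, edgeR adjusted p = 0.0705). It was called by DESeq2 (adjusted p = 0.0316), without PS19 library 3 (edgeR adjusted p = 0.0159), without PS19_p16KO library 3 (0.0256) and without the 3 choroid-rich libraries (0.0416). Sprn, which encodes the related protein shadoo, had log2 -0.17 (edgeR adjusted p = 0.331), and Kcnd2, a potassium channel gene, -0.13 (edgeR adjusted p = 0.572). For p16 on average, the endocytic receptor gene Lrp1 had -0.16 (edgeR adjusted p = 0.269) and the protease gene Adam9 0.07 (edgeR adjusted p = 0.692). Of 26 tested genes of GPI anchor synthesis none was called in any contrast, again near the share of 1.61% or less over all genes. In PS19 against wildtype Pigg had log2 -0.15, Dpm3 0.38 and Pigt 0.09 (edgeR adjusted p = 0.590 to 0.661), and for p16 on average Pgap1 had -0.18 and Pigb -0.12 (edgeR adjusted p = 0.480 and 0.633).

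Of 18 copper and zinc genes none was called in PS19 against wildtype, near the 1.61% of all genes. The metallothionein genes Mt1 and Mt2, which encode metal-binding proteins, had log2 0.56 ± 0.15 and 0.68 ± 0.19 (edgeR adjusted p = 0.101 and 0.133), and the zinc importer gene Slc39a10 had -0.21 (edgeR adjusted p = 0.218). DESeq2 called Mt1 and Mt2 (adjusted p = 0.00348 and 0.0272), and so did edgeR without PS19 library 3 (adjusted p = 0.00747 and 0.00968). Mt1 was also called with no robust dispersion (edgeR adjusted p = 0.0433), and Slc39a10 without wildtype library 3 (log2 -0.28, edgeR adjusted p = 0.0374). In PS19_p16KO against PS19 Slc30a3, the synaptic vesicle zinc transporter gene, was called higher. There 0.825% of the 16372 genes tested were called, 8 of them higher and 127 lower. Slc30a3 went from 66.3 CPM ± 7.83 to 82.8 CPM ± 3.67 (SD, n = 4, log2 0.33 ± 0.08, edgeR adjusted p = 0.0477). That call was lost in 16 of 26 other settings, with adjusted p up to 0.205. For p16 on average Slc30a3 had 0.22 and Mt2 -0.49 (edgeR adjusted p = 0.133 and 0.257). Slc30a3 was called there by DESeq2 (adjusted p = 0.0273), and by edgeR with no filter (0.0326), with the replicate block (0.0401) and without PS19 library 3 (0.0327), which also called Mt2 (0.0327).

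Beside Slc23a2, 7 of 10 genes of vitamin C transport and recycling were tested and none was called in any contrast, near the share of 1.61% or less over all genes. In PS19 against wildtype the glucose transporter genes Slc2a1 and Slc2a3, whose products carry oxidised vitamin C, had log2 0.18 and -0.08, and the reductase gene Akr1a1 had 0.07 (edgeR adjusted p = 0.514 to 0.761). Slc2a1 was called without wildtype library 1 (log2 0.29, edgeR adjusted p = 0.0257) and without the 3 choroid-rich libraries (log2 0.30, edgeR adjusted p = 0.0272). For p16 on average Akr1a1 had 0.05 and Gsto1 -0.08 (edgeR adjusted p = 0.737 and 0.766).

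Of 18 tested genes of the RASSF family and Hippo pathway, 2 were higher in PS19 against wildtype, where 1.56% of all genes were called higher. Rassf4 rose from 5.49 CPM ± 0.295 (SD, n = 4) to 9.49 CPM ± 2.20 (log2 0.79 ± 0.14, edgeR adjusted p = 0.00419). Mob1a, a coactivator of the Lats kinases, rose from 25.2 CPM ± 0.722 to 32.7 CPM ± 2.36 (log2 0.37 ± 0.06, edgeR adjusted p = 0.00271). Both held under all 26 other settings. This list was chosen with earlier results of these data known, so nothing is read from its share of calls. Rassf3 had log2 0.27 (edgeR adjusted p = 0.192). Rassf4 was lower in PS19_p16KO than in PS19, at 5.70 CPM ± 0.435 (log2 -0.72 ± 0.14, edgeR adjusted p = 0.0171). In that contrast 127 of 16372 genes tested were called lower. The Rassf4 call was lost in 7 settings, among them without PS19 library 1 or 2 or PS19_p16KO library 2 or 4 (adjusted p up to 0.160 over all settings). For p16 on average Rassf4 had -0.25 and Rassf1 -0.24 (edgeR adjusted p = 0.517 and 0.607). The microglial and astrocyte marker sums given above were also highest in PS19, and their part in these 2 genes was not tested.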

How the data were processed

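Total RNA of hippocampus was sequenced in bulk, and the authors deposited raw counts per gene. The genome build was GRCm38 and the tools were STAR 2.5.2b, Trimmomatic 0.36, Subread 1.5.2, featureCounts and DESeq2, per the submitters' processing notes, which state no roles. Strand setting and annotation release were not given in the sources used here. Overlapping genes may therefore share reads. Symbols and coordinates came from GENCODE M21, and 49326 gene rows had one. The 92 ERCC spike-in rows (0.574% to 1.06% of counts) entered neither library sizes nor tests.

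Counts were tested with edgeR 4.0.16 in R 4.3.3: filterByExpr with a minimum count of 10, TMM scaling, a robust quasi-likelihood fit of 16 libraries with 1 mean per group, and Benjamini-Hochberg adjustment over all genes tested, called under 0.05. The procedure was tested on simulated data. CPM and RPKM were computed from the counts without TMM. Correlations between Prnp and its neighbours used a pseudocount of 0.1 and pooled both p16 genotypes without removing group means. Those with markers used 100000 permutations within groups. Replicates differed by more than sampling noise (chi-square per degree of freedom 4.56 to 24.3).

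The 5 genes and all lists were chosen with earlier results of these data known. Besides these genes and Rpsa, the text names the nearest tested gene on each side, genes called within 500 kb, 3 genes per list with the smallest p in PS19 against wildtype and 2 for p16 on average, and the genes most like Prnp (6 and 6) and Lamr1-ps1 (4). Prn, Rpsa-ps10 and the list genes called in PS19_p16KO against PS19 were named after their values were seen. Alternatives were DESeq2 1.42.0, limma-voom (limma 3.58.1), RLE scaling, other filters, a replicate block, only the compared groups, no robust dispersion, member rows left out of scaling, each library left out in turn, and, added after seeing the data, the 3 choroid-rich libraries left out.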

Additional observations from a re-analysis of the deposited data

Results flagged for a closer look

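A single library stood apart from the other 3 of its group, by Dixon's gap test at the 95% level, in 3 of 16 groups of values, where chance flags about 1 in 20. Lamr1-ps1 was at 0 CPM in wildtype library 4 and at 0 CPM in p16KO library 1, while the other libraries of those groups had 1 or 2 counts each, so the gap is between 0 and a single count or 2. Slc23a2 was at 209 CPM in p16KO library 4, against 177 to 181 CPM in the other 3 libraries of that group. That library also had 3363 CPM of choroid plexus markers. With all libraries the Slc23a2 difference between p16KO and wildtype was log2 0.06 ± 0.08 (edgeR adjusted p = 0.999). Without the 3 libraries rich in these markers it was -0.02 (edgeR adjusted p = 0.994). Wildtype library 1, also among those 3, had 176 CPM of Slc23a2. The part of choroid plexus RNA in the flagged value was not tested.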

How the results depend on the processing

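Prnp stayed between log2 0.73 and 0.85 in PS19 against wildtype and between 0.79 and 0.83 in PS19_p16KO against p16KO under all settings run. Lamr1-ps1 lay between 5.63 (limma-voom) and 6.24 in PS19 against wildtype under all settings run, and between 5.69 and 6.19 when single libraries were left out. In PS19_p16KO against p16KO it lay between 4.91 and 5.52 under all settings. No setting called Prnp, Rassf2 or Slc23a2 in a p16 contrast.

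The 1 gene called within 500 kb (PS19 against wildtype) became 0 under limma-voom, no filter, the replicate block and only the compared groups, and 0 to 1 when single libraries were left out. For the gene lists together, 2 genes were called in PS19 against wildtype. That count was 5 with DESeq2, 4 when the 3 choroid-rich libraries were left out and 2 to 5 when single libraries were left out. In PS19_p16KO against PS19 the count of 2 became 5 with DESeq2, 0 under limma-voom, only the compared groups and without the choroid-rich libraries, and 0 to 5 when single libraries were left out. For p16 on average the count of 0 became 1 with DESeq2, no filter and the replicate block, and 0 to 2 when single libraries were left out. For the interaction the count of 0 became 2 with DESeq2 and 0 to 2 when single libraries were left out. The cause was not tested.

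Signs turned only for differences near 0 that were not called. Rassf2 for p16 on average (-0.02) was 0.020 under limma-voom, 0.061 without the choroid-rich libraries and -0.038 to 0.032 with single libraries left out. Slc23a2 without the choroid-rich libraries was -0.016 in p16KO against wildtype, -0.011 in PS19_p16KO against PS19 and -0.014 on average. When single libraries were left out it was -0.013 to 0.117 in PS19_p16KO against PS19. Its interaction (0.01) was -0.017 under limma-voom and -0.071 to 0.069 with single libraries left out, and that of Prnp (0.02) was -0.046 to 0.075.

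Over all genes, the 264 called in PS19 against wildtype became 70 with only the compared groups, 390 with DESeq2, 124 without PS19 library 1 and 438 without PS19 library 3. In PS19_p16KO against PS19 the 135 called became 37 under limma-voom, 8 with only the compared groups, 62 without the choroid-rich libraries, 272 with DESeq2, and 29 and 347 without PS19 library 2 and 3. For p16 on average the 37 called became 107 with DESeq2 and 10 to 119 when single libraries were left out, and for the interaction the 1 called became 86 and 1 to 160. In p16KO against wildtype the 0 called became 18 with DESeq2, and in PS19_p16KO against p16KO the 3 became 7.

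The labels do not say whether replicate numbers pair libraries, and correlations between libraries showed no clear pairing. Of 24 same-numbered pairs 6 correlated above 0.1 (range -0.39 to 0.22), and 4 of 16 libraries correlated best with their own number. With the replicate block, Prnp was at 0.79 and 0.81 for the transgene, and calls fell from 264 to 238 in PS19 against wildtype and from 37 to 23 for p16 on average. Depth limits Lamr1-ps1, whose control counts are 0 to 2 per library, and Prnd is limited by its shared exons.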
